A study of Drosophila melanogaster with 2 samples.

Results

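Peaks of a tagged chromatin protein whose summits lay just inside the start of a gene numbered 223 of the 2132 peaks analysed in embryos of the fruit fly Drosophila melanogaster. Each was chosen by position alone: its nearest annotated transcription start site (TSS) lay within 500 bp, and the summit was at the TSS or up to 500 bp downstream of it on the gene's strand. These are called downstream peaks below. Another 926 peaks had the summit up to 500 bp before the nearest TSS (upstream peaks), and 983 lay farther from any TSS. Downstream peaks were 19.4% of the 1149 peaks within 500 bp of a TSS (exact 95% interval 17.2 to 21.8%) and 10.5% of all peaks (9.19 to 11.8%).

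The peaks come from chromatin immunoprecipitation followed by sequencing (ChIP-seq), which maps where a protein sits on DNA. The material was whole embryos aged 0 to 8 h of 1 transgenic line in which the product of the gene CG8765 is fused to enhanced green fluorescent protein (eGFP), and the fusion was precipitated with an antibody against GFP. The series holds 1 group with 2 biological replicates, so no conditions can be compared. Whole embryos of this age range mix many cell types and stages, so fewer cells with binding and less binding per cell cannot be told apart.

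In flies, the stretch just inside a gene's start holds elements of the core promoter, such as the initiator at the start site and the downstream promoter element after it. RNA polymerase II often pauses there before it goes on into the gene. Fly genes are closely packed and many are arranged head to head, so that DNA inside the start of one gene can also be the upstream promoter of its neighbour on the other strand.

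The DNA at the strongest downstream summits outside annotated untranslated regions was mostly rich in A and T. Below are 61 bp on the gene's strand around 6 of the highest-signal summits of that kind, from build dm6, with the summit at base 31. Capitals mark a run of 6 or more A (AAAAAA) or the TATA box letters TATAAA, the motif groups discussed below; 4 of the 6 windows hold neither. They lie at chr3L:19560784-19560844 (minus strand), chrX:4939957-4940017 (plus), chr2L:21794942-21795002 (minus), chr2L:18145456-18145516 (plus), chr3R:25996610-25996670 (minus) and chr2L:9568688-9568748 (minus), in the order printed.
lncRNA:CR44676: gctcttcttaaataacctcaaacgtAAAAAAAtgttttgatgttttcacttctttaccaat
Ptp4E: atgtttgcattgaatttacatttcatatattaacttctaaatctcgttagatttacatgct
CG31612: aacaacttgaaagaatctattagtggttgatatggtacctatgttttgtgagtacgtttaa
lncRNA:CR44478: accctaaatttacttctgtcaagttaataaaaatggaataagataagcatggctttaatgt
CG43116: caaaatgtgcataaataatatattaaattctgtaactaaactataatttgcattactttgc
lncRNA:CR44149: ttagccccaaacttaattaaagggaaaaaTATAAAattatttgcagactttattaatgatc

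G and C made up 21.3 to 31.2% of the bases in these 6 windows. The choice of windows without untranslated regions favours summits in introns and in noncoding genes: the summits at Ptp4E, CG31612 and CG43116 lie in introns, and 5 of the 6 lie between 356 and 475 bp downstream. The DNA within the start of a coding gene can look different. The 30 bp around the motif match nearest to the summit of the 2 strongest downstream peaks are shown next, with the matching letters in capitals. For Chro they hold a run of A at chr3L:22878929-22878958 (minus strand), 54 bp before the summit, and a TATA box read on the other strand at chr3L:22878951-22878980 (minus strand), 76 bp before the summit. For lawc they hold the initiator letters TCAGT read on the other strand at chrX:8410036-8410065 (minus strand), 24 bp before the summit.
Chro, A run: atactatattcgAAAAAAccttcgaaatct
Chro, TATA box: tgaaacccgcgtTTTATAtcatatactata
lawc, initiator: acgggcggcgcaACTGAaatcgcgtaccga

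Downstream summits crowded close to the start site, with a smaller rise in counts farther inside the gene. The median summit lay 86 bp downstream of its TSS (quartiles 36 and 239.5 bp, largest 487 bp, n = 223), against 115 bp before the TSS for the 926 upstream peaks. The 3 bins of 50 bp nearest to the TSS held 68, 52 and 28 downstream peaks. The next bins thinned to 13, 7 and 6 peaks, and those from 300 bp on held 11, 12, 18 and 8. The rule ends at 500 bp and a window of 1000 bp held more downstream peaks. The late peaks may thus continue beyond the limit and need not form a group of their own. Upstream peaks had no such late rise: their counts per bin fell to 14 in the bin farthest from the TSS after a maximum of 240 at 50 to 99 bp.

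The position of a summit is known only coarsely. Of the 223 downstream peaks, 189 had the same width of 324 bp and 190 had the summit at the centre of the interval. In all, 145 intervals (65.0%, 58.4 to 71.3%) contained the TSS itself. The summit lay less than 25 bp from the TSS in 41 downstream and 54 upstream peaks. Between the conservative list and the strongest overlapping peak of each replicate's own ranked list, the median shift of a downstream summit was 24 bp in replicate 1 and 19 bp in replicate 2. The replicates' own summits were also 0 to 500 bp downstream for 171 of the 223 peaks (76.7%, 70.6 to 82.1%) in both replicates and for 21 in neither.

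The edges of the rule were set by distance alone. The 3 summits nearest to the TSS belonged to Mrp5 (0 bp, signal 76.2), CG4360 (1 bp, 78.2) and RpS15Aa (1 bp, 97.5). Just outside, 1 bp before the TSS, lay the summits at CG3609 (129.5), Dref (104.8) and gry (127.6). At the far edge the members were kuk (487 bp, signal 131.1), CG4615 (484 bp, 67.7) and ph-p (484 bp, 483.1). The peaks just beyond were at lncRNA:CR44619 (501 bp, 606.2), lncRNA:CR44022 (507 bp, 69.2) and rno (507 bp, 65.3).

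Many downstream peaks also lay before another start site. In 84 of 223 (37.7%, 31.3 to 44.4%) the summit was at the same time within 500 bp before a TSS of another gene, and in 82 of these that gene was on the opposite strand, the head-to-head arrangement. Upstream peaks lay before a TSS of a second gene in 412 of 926 cases (44.5%, 41.3 to 47.8%). A further 23 downstream peaks lay before another TSS of their own gene only. The remaining 116 had no TSS ahead of them within 500 bp. These 3 kinds, and the zones of 0 to 149 bp and 350 to 500 bp used below, were defined after the data had been seen.

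The kinds sat at different distances, which the rule in part fixes. Peaks before another gene's TSS had a median position of 61.5 bp, and 76 of the 84 lay within 149 bp of the TSS. Those with no TSS ahead had a median position of 185 bp: 52 lay at 0 to 149 bp, 28 at 150 to 349 bp and 36 at 350 to 500 bp. Of the 38 peaks at 350 to 500 bp, 36 had no TSS ahead. The rule leaves little room for one there: it must be farther away than the nearest TSS and within 500 bp.

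**Figure D1:**
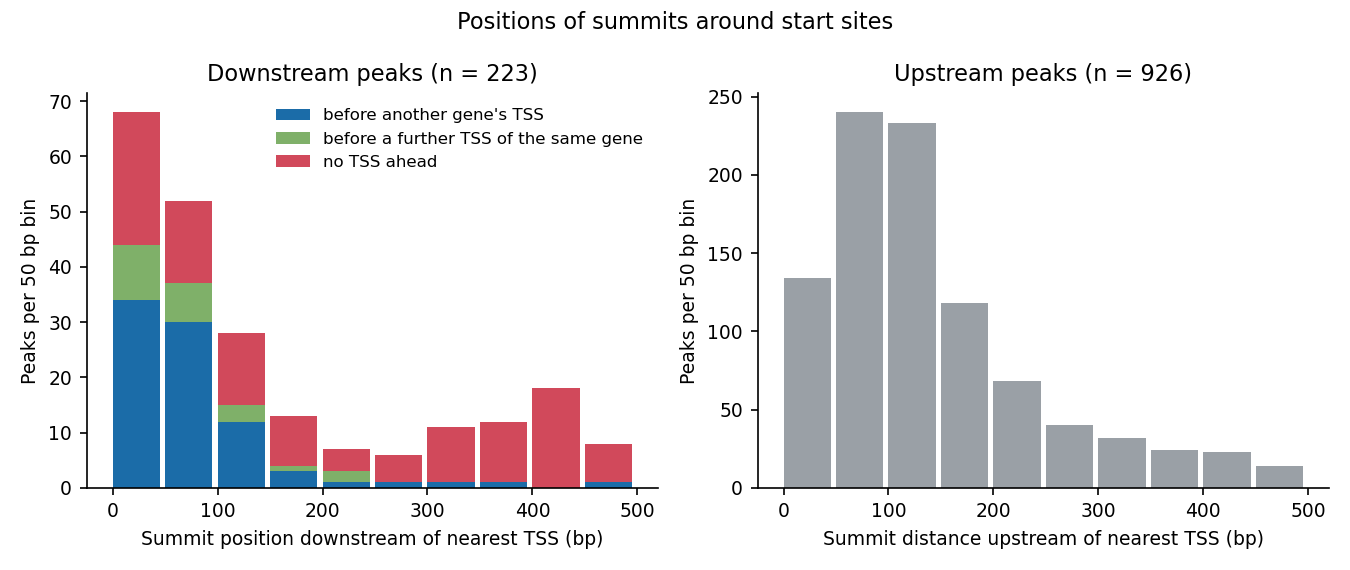
Number of summits per 50 bp bin by distance from the nearest TSS (bp), for the 223 downstream peaks (left, stacked by kind) and the 926 upstream peaks (right, own scale). Downstream counts fall from 68 in the bin next to the TSS to 6 at 250 to 299 bp and reach 18 at 400 to 449 bp. All 18 have no TSS ahead, for which the rule leaves little room at that distance.

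The annotation placed most downstream summits in the transcribed leader. The summit lay in a 5′ untranslated exon of the nearest gene in 144 of 223 peaks (64.6%, 57.9 to 70.8%), in an intron in 40 (17.9%, 13.1 to 23.6%), in an exon of a noncoding gene in 27 (12.1%) and in a coding exon in 6 (2.69%). In another 6 the summit lay past the end of a short gene. Exons of any sort held 177 summits (79.4%, 73.5 to 84.5%). The place changed with distance: among peaks with no TSS ahead, 42 of 52 near summits were in 5′ untranslated exons and 2 in introns, while 18 of 36 far summits were in introns and 7 in 5′ untranslated exons.

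The nearest gene was noncoding more often than at upstream peaks, but about as often as over all peaks. It coded for protein in 187 downstream peaks (83.9%, 78.4 to 88.4%) and in 885 of 926 upstream peaks (95.6%, 94.0 to 96.8%), intervals that do not overlap. It was an ncRNA gene, which here includes long noncoding and antisense RNAs, in 31 downstream peaks (13.9%, 9.65 to 19.2%) and in 37 upstream peaks (3.996%, 2.83 to 5.47%). Over all 2132 peaks the shares were 86.8% for protein-coding and 11.9% for ncRNA genes, both within the downstream intervals. Peaks farther than 500 bp from any TSS had 79.3% and 18.9%. Another 4 downstream peaks were at snRNA genes and 1 at a pseudogene. The members were spread over the large arms, with 54 on 2R, 52 on 3R, 40 on 2L, 39 on 3L and 38 on X.

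The median signal was lower at downstream than at upstream peaks. The signal is the authors' value per peak, in the units of its list. It ran from 4.07 to 869.5 at downstream peaks, with a median of 93.6, against medians of 110.7 at upstream peaks and 104.7 over all 2132. As a percentile within the list, the downstream median was 41.6 and the upstream median 53.9. The difference between these medians has no test here, because peaks of 1 experiment are not replicates.

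The weakest members lay beside stronger peaks. In the conservative list 26 downstream intervals overlapped another peak and 18 overlapped a stronger one; of the 19 members with a signal under 50, 18 did so. RpS20, a protein of the small ribosomal subunit, had a signal of 11.2 with its summit at 54 bp downstream. The strongest overlapping peak of each replicate there had its summit upstream, at -108 bp in replicate 1 and -162 bp in replicate 2. Peaks at Ucp4A, garz, ebi and sds22 had the same arrangement, with signals of 23.4, 27.5, 40.1 and 49.1 and replicate summits between -40 and -214 bp. For such members the replicates' values describe the neighbouring upstream peak.

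About as many downstream peaks as peaks in general were found in both replicates' own thresholded lists, which hold the peaks that passed a cut-off on the irreproducible discovery rate (IDR), which scores how stable the rank of a peak is between sets of peaks. The count was 99 of 223 (44.4%, 37.8 to 51.2%), against 480 of 926 upstream peaks (51.8%, 48.6 to 55.1%) and a background of 46.2% of all 2132 peaks. The list of replicate 1 held 135 (60.5%) and that of replicate 2 held 143 (64.1%), and 44 members (19.7%, 14.7 to 25.6%) were in neither list. In the longer ranked lists a peak overlapped all 223 members in replicate 1 and 222 in replicate 2. Those lists hold 106449 and 125328 peaks on the arms, and 99.3% and 99.8% of all 2132 peaks overlapped one. This overlap therefore says little about the members. An overlap of 1 bp is enough in these counts, so a member beside a stronger peak can be counted through that peak.

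**Figure D2:**
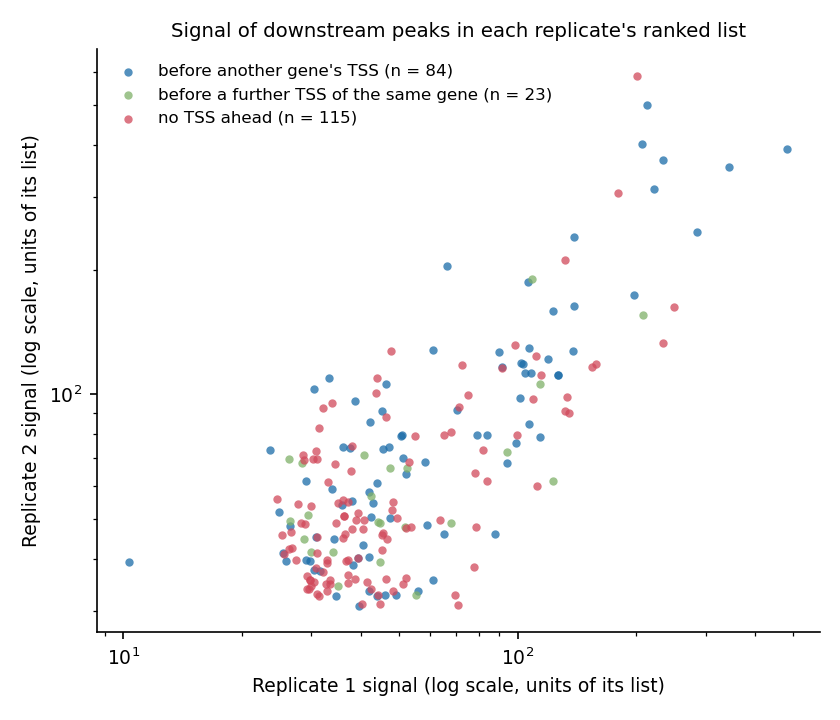
Signal of each downstream peak in replicate 1 (x axis) and replicate 2 (y axis), log scales in the units of each replicate's ranked list, with 1 point for each of the 222 members that have a value in both, coloured by kind. Signals run from 10.4 to 482.6 in replicate 1 and from 30.8 to 587.7 in replicate 2, and 11 of the 20 members strongest in the conservative list lie before another gene's TSS. For members beside a stronger peak the values can be those of that peak.

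Presence in both replicates' own thresholded lists differed by place, as did signal. Presence here counts peaks that pass each replicate's own cut-off. All 52 near peaks with no TSS ahead overlapped a ranked peak in each replicate, as nearly all peaks of the conservative list did. Near peaks with no TSS ahead were in both replicates' thresholded lists in 8 of 52 cases (15.4%, 6.88 to 28.1%). For far peaks with no TSS ahead the count was 23 of 36 (63.9%, 46.2 to 79.2%), and for peaks before another gene's TSS it was 50 of 84 (59.5%, 48.3 to 70.1%). The interval of the near group overlaps neither of these others, but this is no test, since the groups were defined after the data had been seen. The 28 peaks with no TSS ahead between these zones had 9 in both lists (32.1%, 15.9 to 52.4%) and a median signal of 97.1. Signal moved with this split: the median signal was 74.9 in the near group, 131.8 in the far group and 107.9 before another gene's TSS, and the median percentiles within the list were 21.2, 64.9 and 52.3.

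Strength and presence in both lists went together at downstream and upstream peaks alike. Above the list's median signal, 75 of 92 downstream peaks (81.5%, 72.1 to 88.9%) and 418 of 502 upstream peaks (83.3%, 79.7 to 86.4%) were in both lists. At or below it the counts were 24 of 131 (18.3%, 12.1 to 26.0%) and 62 of 424 (14.6%, 11.4 to 18.4%). The weaker downstream part includes the 19 members with a signal under 50. Of these, 18 overlap a stronger peak and can be counted through it. Only 8 of the 52 near peaks with no TSS ahead were above the list's median, 5 of them in both lists, so place and signal can hardly be separated for that group.

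**Figure D3:**
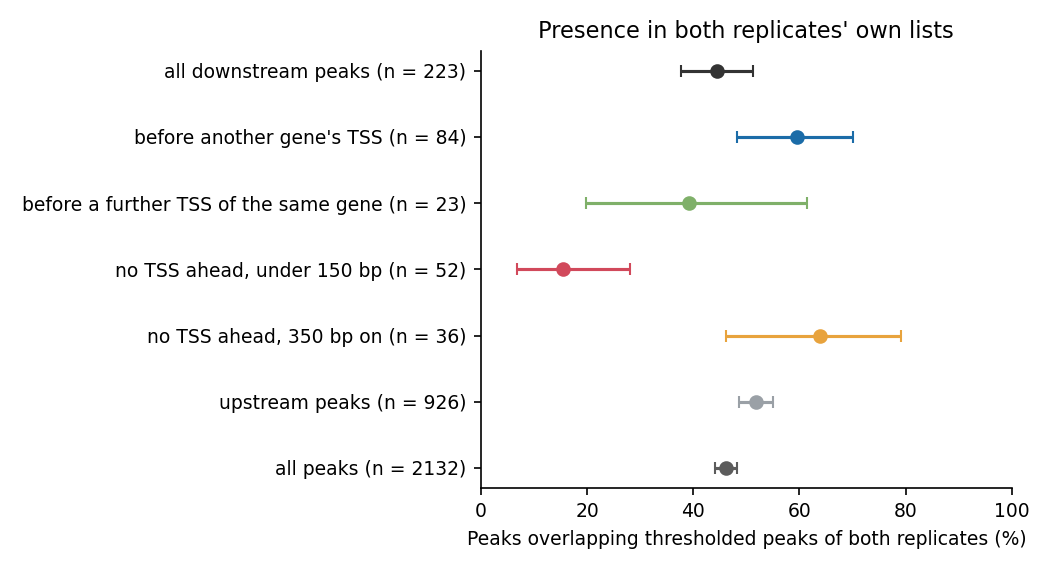
Share of peaks that overlap thresholded peaks of both replicates (%), with exact 95% intervals as bars, for downstream peaks and their kinds above upstream peaks and all peaks; the 28 peaks with no TSS ahead at 150 to 349 bp are not drawn apart and had 32.1%. Near peaks with no TSS ahead lie at 15.4%, and the other shares drawn run from 39.1% to 63.9%.

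Of the 20 downstream peaks with the highest signal, 11 lay before another gene's TSS, against 84 of all 223 (37.7%). Among the 92 above the list's median signal, 43 were of that kind. All 20 were in both replicates' thresholded lists, as were 81.5% of the 92. The highest was at Chro, which encodes the chromodomain protein Chromator of polytene chromosome interbands. Its summit was 94 bp downstream, in the 5′ untranslated exon, and 199 bp before the TSS of Ssl1. Its signal was 869.5 in the conservative list, 482.6 in replicate 1 (rank 10) and 390.1 in replicate 2 (rank 29).

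The peak at lawc was the strongest with no TSS ahead. Its signal was 780.6, with 201.6 in replicate 1 (rank 94) and 587.7 in replicate 2 (rank 9), so it ranked far higher in replicate 2. The 201 bp around its summit, 71 bp downstream, held 60.7% G and C, the highest among the 20 strongest members but not among all members.

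Other strong peaks before another gene's TSS were as follows. The peak at mRpL23, a protein of the large mitochondrial ribosomal subunit, had a signal of 695.0 in the conservative list. It had 343.5 in replicate 1 and 353.7 in replicate 2. Its summit lay 82 bp downstream, in an intron, and 132 bp before the TSS of CG9004. The peak at Elp5, a subunit of the Elongator complex that modifies tRNAs, had 541.8 in the conservative list, with 222.4 in replicate 1 and 312.4 in replicate 2. That at Trmt6, a tRNA methyltransferase subunit, had 365.4, with 138.8 in replicate 1 and 239.8 in replicate 2. Their summits lay 98 and 107 bp before the TSSs of CG1275 and Ent2. An antisense gene, asRNA:CR45928, had a signal of 698.2 with the summit 97 bp before the TSS of eIF6, a ribosome assembly factor. The rest of those among the strongest 20 were at CG8320, CG8360, tank, lncRNA:CR44209, CG2004 and CG11309, with signals from 291.5 to 611.1.

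Of the other 9 strongest peaks, 2 lay before a further TSS of their own gene, CG9399 (signal 367.6) and CG18622 (288.9), and 6 lay at least 350 bp downstream with no TSS ahead, 5 of them within the gene and that at lncRNA:CR44676 past its end. The highest of these 6 was at ph-p, a subunit of the Polycomb repressive complex PRC1. Its signal was 483.1, with 179.4 in replicate 1 and 306.3 in replicate 2, and its summit lay 484 bp downstream. The others were at lncRNA:CR44676 (432.3), Ptp4E (359.2), a receptor protein tyrosine phosphatase, CG31612 (339.1), lncRNA:CR44478 (286.2) and CG43116 (282.4). A near copy of ph-p lies beside it in tandem, and reads from such copies may be hard to place.

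A protein-coding gene was rarely the nearest gene of a downstream peak: 183 of 13968 genes were (1.31%), against 850 (6.09%) for upstream peaks. Over the 23 gene lists, 27 of 912 listed genes had a downstream peak (2.96%, 1.96 to 4.28%) and 103 had an upstream peak. No list was tested for enrichment.

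Genes of chromatin regulation were among the listed members. Of 28 Polycomb and trithorax group genes, 4 had a downstream peak (14.3%, 4.03 to 32.7%) and 3 an upstream peak, against 1.31% and 6.09% of all protein-coding genes. Besides ph-p they were E(z), the histone methyltransferase of the Polycomb complex PRC2, Su(z)12, another PRC2 subunit, and Trl, which encodes GAGA factor. The peak at E(z) had a signal of 217.3, with 103.1 in replicate 1 and 118.1 in replicate 2, and lay before the TSS of Cnep1r2. That at Trl had 185.3, with 47.9 in replicate 1 and 127.4 in replicate 2. Su(z)12 had 90.4, with 38.1 in replicate 1 and 55.1 in replicate 2. All were in both replicates' thresholded lists, except a weaker peak at ph-p described below. Of 18 insulator and promoter-binding protein genes, 3 had a downstream peak (16.7%, 3.58 to 41.4%) and 4 an upstream peak: Chro, Trl, which is on both lists, and pita, a zinc finger insulator protein with a signal of 87.3.

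Genes of protein synthesis had more upstream than downstream peaks, as protein-coding genes did in general (183 genes with a downstream and 850 with an upstream peak). Of 93 cytoplasmic ribosomal protein genes, 5 had a downstream peak (5.38%, 1.77 to 12.1%) and 23 an upstream peak. RpL7 had the highest signal, 207.5, with 104.3 in replicate 1 and 112.3 in replicate 2, and its summit also lay 54 bp before the TSS of Ripalpha. RpL26 had 115.2, RpS15Aa 97.5, RpS7 89.2 and RpS20 the 11.2 given above. The summits at RpL7, RpS15Aa and RpS7 lay 24, 1 and 17 bp from the TSS, no more than the median shift of 24 bp given above for replicate 1. Replicate 1's own thresholded list gave 2 ribosomal protein genes a downstream peak and that of replicate 2 gave 3. Of 54 translation factor genes, eIF3c (187.3) and eIF3h (89.3), subunits of initiation factor 3, had a downstream peak, and 8 had an upstream peak. The summit at eIF3h also lay 377 bp before the TSS of senju. The summit at eIF3c lay only 5 bp downstream, and the replicates' own summits there were upstream, at -1 and -10 bp. Of 75 mitochondrial ribosomal protein genes, mRpL23 alone had one, against 6 upstream.

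Among 41 patterning transcription factor genes, the Hox gene pb had a downstream peak, with a signal of 151.5 at 336 bp, and 8 genes had an upstream peak. Sxl, the switch gene of sex determination, had a signal of 129.4 in an intron 404 bp downstream, with 55.1 in replicate 1 and 79.2 in replicate 2. The junction scaffold gene dlg1 had 116.5 in an intron at 465 bp, and sqh, the regulatory light chain of myosin II, had 122.7 at 91 bp. These 3 were in the splicing list and the adhesion list, with 2 genes of 31 and 2 of 27 in all. The other splicing and RNA-binding member was pAbp, the poly(A)-binding protein, with 65.1.

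The listed signalling, neural and cell cycle genes with a downstream peak all had signals of at most 100.4. They were hpo, the kinase of the Hippo pathway (100.4), stg, the Cdc25 phosphatase of the embryonic divisions (84.2), Dp, the partner of E2F (88.5), robo2, an axon guidance receptor (71.4), mam, a coactivator of Notch (59.1), and aos, a secreted inhibitor of the EGF receptor (54.6). Of these 6, hpo was in both replicates' thresholded lists, robo2 was in that of replicate 1, and the other 4 were in neither. Dp and stg, with Pef (86.6), were the 3 highest-signal members in neither list. Other listed members were Hsc70-5, a mitochondrial chaperone (115.7), and the proteasome subunit gene Rpn3 (98.1). No gene of 8 lists had a downstream peak: Wnt and Hedgehog, TGF-beta, ecdysone response, cytoskeleton, chromatin remodelling, oxidative phosphorylation, vesicle traffic and early cellularization, which hold from 12 to 92 matched genes. The share over all protein-coding genes was 1.31%, so lists of this size can hold none without standing apart from it. Genes outside the lists were not counted for these functions.

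A pair of downstream peaks was found at each of 5 genes, and the pairs were of unequal strength. At ph-p the peak at 484 bp had a signal of 483.1 and that at 39 bp had 59.5, and the peak at 39 bp was in the thresholded list of replicate 2 but not of replicate 1. Gli, the tricellular junction protein Gliotactin, had 99.9 in an intron at 337 bp and 70.0 at 134 bp. CG30373 had 117.1 at 32 bp and 63.3 in a coding exon at 424 bp. CNBP, a zinc finger protein that binds nucleic acid, had 83.0 at 154 bp and 60.2 in a coding exon at 345 bp, where G and C made up 70.7% of the 201 bp. At snRNA:U1:95Cb, a gene for the U1 RNA of the spliceosome, the signals were 48.9 at 51 bp and 18.7 at 250 bp. U1 genes have near-identical copies, so reads there may be shared among copies.

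Base composition separated the kinds of downstream peak. Over all 223, G and C made up 41.8 ± 9.02% of the 201 bp at the summit and 44.6 ± 7.33% of flanks lying 400 to 500 bp from the same summit (SD over peaks). At the 926 upstream peaks the values were 37.3 ± 7.90% and 45.5 ± 7.95%. The summit was poorer in G and C than its flanks in 138 of 223 downstream peaks (61.9%, 55.2 to 68.3%) and in 716 of 926 upstream peaks (77.3%, 74.5 to 80.0%).

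Peaks before another gene's TSS had the upstream kind of composition. Their summits held 38.4 ± 7.83% G and C against 48.2 ± 6.31% in their flanks, and 71 of 84 were poorer than their flanks. Far peaks with no TSS ahead were alike, with 39.4 ± 8.55% against 44.1 ± 6.31% and 26 of 36 poorer. Near peaks with no TSS ahead had the opposite: 48.2 ± 6.40% against 41.9 ± 6.5%, with 15 of 52 poorer (28.8%, 17.1 to 43.1%). The 28 peaks between these zones had 42.8 ± 11.3% at the summit and 40.7 ± 7.66% in the flanks. For scale, 201 bp windows centred 86 bp downstream of 19276 protein-coding TSSs held 44.0 ± 7.12% G and C, and those centred 115 bp upstream held 39.2 ± 9.14%.

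The contrast was also present in each replicate's own thresholded list, which shares its reads with the conservative list. In replicate 1, 38 near peaks with no TSS ahead had 47.7 ± 6.55% G and C at the summit and 41.8 ± 7.61% in the flanks. In replicate 2, 30 such peaks had 47.1 ± 5.96% and 39.7 ± 6.58%. Their median signal percentile was also low in both lists, 18.5 and 26.8, against 63.9 and 52.4 for far peaks with no TSS ahead.

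Along the gene's strand, the near peaks with no TSS ahead lay on a block of high G and C with AT-rich DNA behind it. In 41 bp windows their mean was 51.97% at 100 bp before the summit, 46.6% at the summit, and 34.1% at 340 bp before it, which is upstream of the gene. At 400 bp after the summit it was 44.8%, so the low flank value came mainly from the upstream side. Far peaks had a trough of 33.9% at 20 bp after the summit, and upstream peaks had one of 32.5% at 60 bp before it. G and C content was lower in stronger peaks: above the list's median signal, downstream summits held 37.7 ± 7.76%, against 44.7 ± 8.77% in those at or below it. The direction was the same at upstream summits (35.53 against 39.35%) and over all peaks (36.1 against 40.5%). Within the near peaks with no TSS ahead the values were closer, 46.95% in 8 peaks and 48.5% in 44. Whether composition affected the recovery of fragments was not tested.

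**Figure D4:**
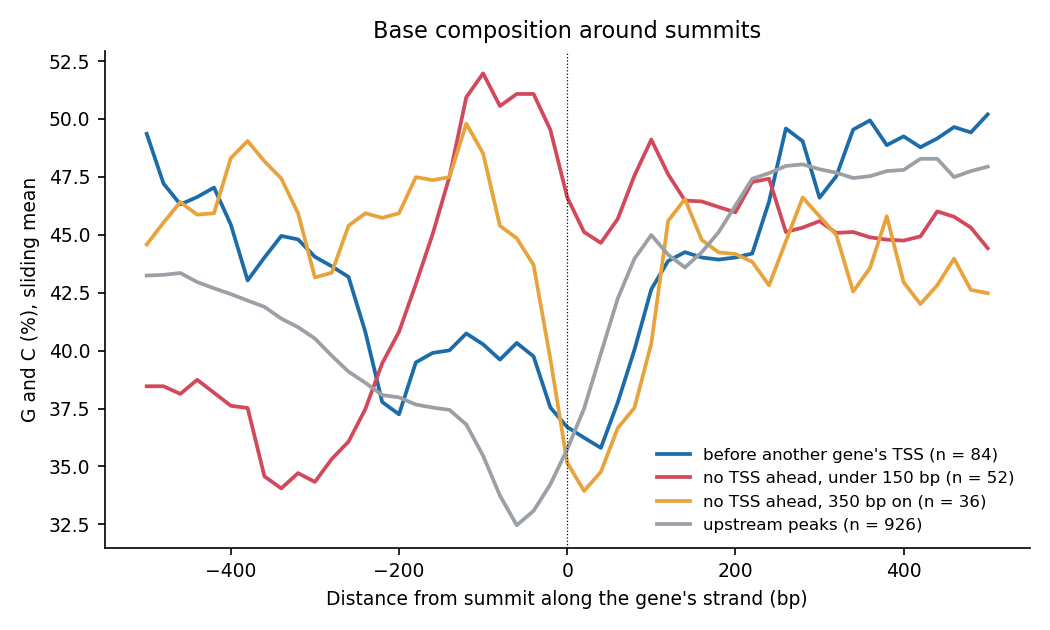
Mean G and C content (%) in sliding 41 bp windows against distance from the summit (bp, along the gene's strand) for 3 kinds of downstream peak and for upstream peaks. Near peaks with no TSS ahead reach 51.97% before the summit and stay at 46.6% at it, whereas far peaks and peaks before another gene's TSS dip to 33.9% and 35.8% just after it.

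Short sequence motifs were counted in the 201 bp at each summit and in the same peak's flanks, on both strands. Of 28 motifs, 14 were more frequent at downstream summits than in the flanks, 3 were equal and 11 less frequent. For 20 the flank share lay within the exact interval of the summit share, for 7 it lay below and for 1 above. Matches are described as letters and say nothing on which protein binds.

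The A run, the TATA box and the initiator had the largest gains at the summit over the flanks, and the Pho letters, given below, had the largest difference in the other direction. A run of A (AAAAAA) was present at 39.5% of summits (33 to 46.2%) and 29.6% of flanks. The TATA box (TATAAA) was present at 27.4% (21.6 to 33.7%) and 17.9%, and the initiator (TCAGT) at 35.4% (29.2 to 42.1%) and 26.0%. In 201 bp windows 86 bp downstream of all protein-coding TSSs the shares were 32.5%, 17.7% and 41.1%, so the initiator share was not higher at these summits. All those windows hold the TSS, whereas windows at summits more than 100 bp downstream do not hold theirs. The initiator shares are thus not matched in position. With flanks 300 to 400 bp away the flank shares were 28.3%, 21.5% and 32.3%. The initiator and its flank then differ by less than the interval, while the TATA box flank lies just under it.

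Letters known from housekeeping promoters varied in how they compared. The letters CGATA, bound by the insulator protein BEAF-32, were at 32.3% of summits (26.2 to 38.9%) and 24.2% of flanks. The DNA replication-related element (TATCGATA), which contains CGATA, was at 6.73% of summits (3.81 to 10.9%) and 1.79% of flanks. Motif 7 (CAGCNCT) was at 12.1% of summits (8.13 to 17.1%) and 5.83% of flanks. In windows at protein-coding TSSs in general the shares were 29.7%, 2.21% and 10.2%, so those of CGATA and motif 7 lay within the summit intervals. Motif 1 (GGTCACAC) was at 2.69% of summits (0.994 to 5.76%) and 1.35% of flanks. The CREB letters TGACGT were at 7.62% (4.50 to 11.9%) and 2.24%, but at 6.73% of flanks 300 to 400 bp away. The Pho letters GCCAT, bound by a Polycomb recruiter, were less frequent at summits, 24.2% (18.8 to 30.4%) against 36.3% of flanks, but were at 28.7% of the nearer flanks.

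For 22 of the 28 motifs the share at upstream summits lay within the interval of the downstream share. The TATA box was at 27.4% of downstream and 36.2% of upstream summits, and the homeodomain letters TAATTA were at 9.87% (6.29 to 14.6%) and 18.1% (15.7 to 20.8%). The pause button letters CGGACG were at 6.28% (3.47 to 10.3%) and 1.84% (1.07 to 2.92%). These letters are themselves rich in A and T or in G and C, and base composition differed between these summits as given above. Its part in the motif shares was not tested.

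Within the downstream peaks some motif shares differed between the kinds. The TATA box was at 34.5% of summits before another gene's TSS (24.5 to 45.7%), at 41.7% of far summits with no TSS ahead (25.5 to 59.2%) and at 11.5% of near ones (4.35 to 23.4%). The shares in their own flanks were 8.33%, 27.8% and 19.2%, so those of the far and near peaks lay within the summit intervals. The pause button was at 17.3% of near summits with no TSS ahead (8.23 to 30.3%), against 5.77% of their flanks and 6.55% of windows at protein-coding TSSs in general. It was at 1.19% of summits before another gene's TSS. The initiator was at 46.2% of near (32.2 to 60.5%) and 41.7% of far summits with no TSS ahead (25.5 to 59.2%). The 41.1% of windows at protein-coding TSSs lies within both intervals, but those windows hold the TSS and the windows at far summits do not.

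**Figure D5:**
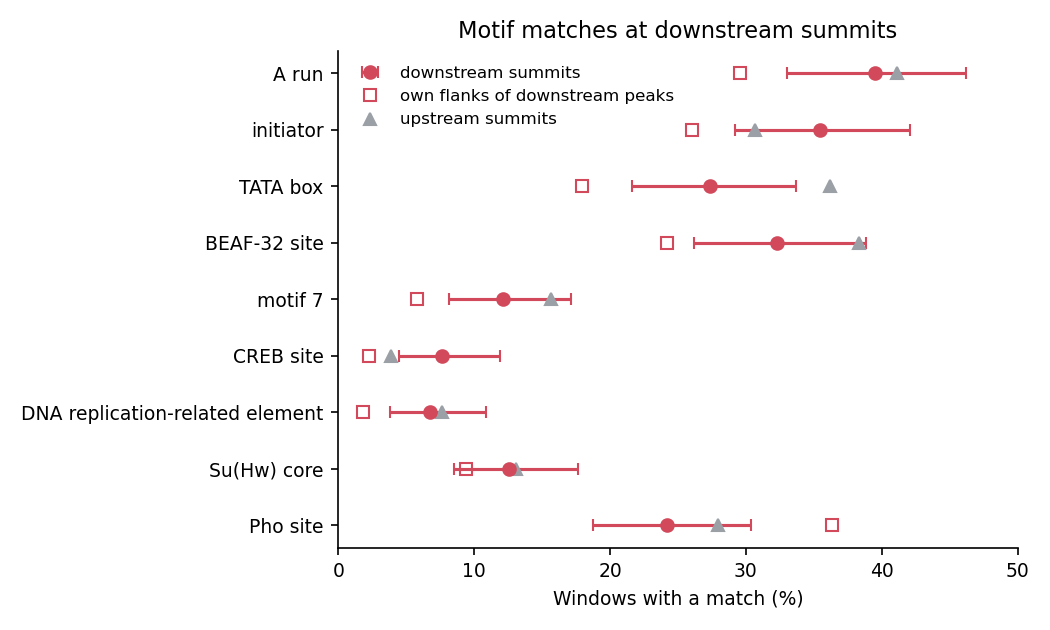
Share of windows with a match (%) for the 9 motifs whose downstream summit and flank shares differ by 3 points or more, with exact 95% intervals for downstream summits (filled circles), their flanks (open squares) and upstream summits (triangles). The A run, TATA box and initiator lie above their flanks, and the Pho site lies below its flanks.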

How the data were processed

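The authors deposited peak lists in a narrowPeak layout on build dm6, per the labels. No source used here names the aligner or the peak caller. The unit is the signal of each peak, the authors' deposited value, whose scaling differs between lists, so levels were compared within a list or as percentiles. Depth is unknown, so no interval on a signal can be given. Intervals on shares (exact, 95%) cover counting of peaks only. The ranked lists' further 40 columns of values were not used.

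The main list was the conservative IDR-thresholded list on the arms (2132 of 2167 peaks). TSSs came from Ensembl annotation 115 of BDGP6 without 5889 transposable element entries. A replicate's value is that of the strongest peak of its ranked list that overlaps by at least 1 bp. Thresholded lists held 1875 peaks in replicate 1 and 1671 in replicate 2 on the arms. Sequences come from the reference genome of the same build. Tables were made with Python 3.11.15, pandas 2.3.3, NumPy 2.4.6, SciPy 1.17.1 and matplotlib 3.10.9, and the placing of summits and motif search were tested on simulated data.

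The members, the 23 gene lists, the 28 motifs and the settings were chosen with earlier results of these data known. Named genes are the 20 members with the highest signal, 3 inside and 3 outside each edge, the 2 highest members of each list, genes with more than 1 member, and the 3 highest members in neither replicate's thresholded list; other genes were named after their values were seen. No hypothesis test was run, since 1 group allows no comparison of conditions and peaks are not replicates. The alternatives were other lists, stronger peaks, merged peaks, TSS windows, coding TSSs, ties between start sites left out, other sequence windows and flanks, and a stricter overlap. The labels also point to a control experiment, not used here. The printed windows are those of the highest-signal members on other arms than 2R with no annotated untranslated region.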

Additional observations from a re-analysis of the deposited data

How the results depend on the processing

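Of 794 alternative values for 70 results, 638 stayed close to the reported value and 156 did not. Close means within the exact interval for a share and within 1.5 times for a count. For a median or a mean it means within 1 SD between the replicates' own lists. Leaving out summits tied between an upstream and a downstream start site removed 0 of 2132 peaks. No value could move in that setting, and the 638 include its values. Counts that stayed within 1.5 times were still 318 peaks in the less strict list, 161 with a 200 bp window and 332 with a 1000 bp window, with 35, 21 and 38 listed genes. The 223 peaks became 175 to 186 and the median position 98 to 101 bp in a single replicate's own list, with a median percentile of 41 to 47.9, G and C of 40.8 to 41.1%, 20 to 22 listed genes and 19.3% of TSS peaks downstream. Above the list's median signal there were 92 peaks (15.5% of TSS peaks), with a median position of 116 bp, percentile 78.6, 37.7% G and C, 13 listed genes, 27.2% in introns, 67.4% in exons, 48.9% near another gene's TSS, 41.3% with a further TSS of the gene ahead and 81.5% in both replicates' lists. The less strict list gave 22.3% downstream, 92 bp, 43.3% G and C and 30.5% in both lists. A 200 bp window gave 59 bp, 8.07% in introns, 91.9% in exons, 50.3% near another gene and 41% with a further TSS; a 1000 bp window gave 24.4%, 230 bp, 41.3% G and C, 34.6%, 60.5%, 27.1% and 20.5% for the same measures. Merged peaks gave 91 bp and 41.5% G and C, coding TSSs 77 bp and 42.1%, and 101 bp of sequence 40.4%. Added after seeing the data, summits downstream in both replicates' ranked lists gave 15.6%, 108 bp, percentile 48.5 and 41.3% G and C, and summits at least 25 bp downstream gave 16.4%, 116 bp and 41.5%. The cause of these shifts was not tested; windows and thresholds change the members by construction.

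Near peaks with no TSS ahead held 47.0 to 49.1% G and C over the alternatives, but not every setting could change this group. Leaving out ties removed no peak. The near zone lies inside every TSS window used, and a TSS ahead was sought within 500 bp throughout, so a change of window returned the same peaks. Other settings kept only part of the same list, so the range is a limited check. The group's share in both lists was 62.5% above the median signal, from 8 peaks. The ribosomal protein count of 5 was 2 to 3 in the replicates' own lists. Flanks 300 to 400 bp away change flank values only. No paired analysis was possible because the series holds 1 group. Unknown depth limits the weakest peaks.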
